A study of Mus musculus with 4 samples.

Results

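Collagens, laminins and the integrin receptors that bind them were examined in mouse colon adenoma organoids, tumour epithelium cultured in 3D. The genes were found by name, as every annotated symbol of the form Col-number-a-number, Lama, Lamb or Lamc with a digit, or Itga or Itgb with a number, a letter or both. This gave 74 of the 17097 genes on the array, made up of 42 collagen, 8 laminin and 24 integrin genes, with 1 probe set used for each, that of the highest mean level. Some chains of these families have no named probe set in the annotation used and were not analysed here. RNA of 4 cultures on a C57BL/6 background was hybridised to 1 Affymetrix array each. The reference group of 2 arrays, labelled Apc null, came from organoids with the genotype VillinCreERT2 Gata6+/+ Apc fl/fl. The other 2 arrays, labelled Gata6 null/Apc null, came from VillinCreERT2 Gata6 fl/fl Apc fl/fl organoids. Both groups thus carry floxed Apc, which encodes the suppressor of Wnt signalling lost in most intestinal adenomas, and a Cre recombinase that the Villin promoter expresses in intestinal epithelium and tamoxifen activates. All cultures were grown for 7 days in a control medium with 50 ng/ml EGF, and the age of the mice is not given in the sources used here. The labels give each group 1 array with the batch letter A and 1 with the letter B, without saying what a batch was.

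Epithelial cells stand on a basement membrane, a sheet in which collagen IV trimers and laminin trimers form networks. Integrins are pairs of an alpha and a beta chain that span the plasma membrane, bind these proteins outside the cell and link them to actin or, at hemidesmosomes, to keratin filaments. In the intestine the epithelial cells themselves make part of the basement membrane, while most fibrillar collagen comes from fibroblasts of the underlying tissue.

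Values are RMA expression values in log2 units, and every difference takes the group labelled Gata6 null/Apc null minus the group labelled Apc null. Array medians lay between 4.91 and 5.04, and correlations between arrays across probe sets were 0.963 to 0.979. The targeted gene was no check of the labels. Gata6, which encodes a zinc finger transcription factor of the gut, read 8.89 and 8.61 in the Apc null arrays of batches A and B and 9.37 and 9.40 in those labelled Gata6 null/Apc null, at a probe set whose place relative to the deleted part is not known here. Gata6 thus read 0.64 higher where the label names it as null, without overlap of the groups. Under the blocked limma fit used below, in which the batch letter pairs the arrays, Gata6 itself was called higher (adjusted p = 0.0392). The fit with genotype alone gave it no call (0.418). Each direction below therefore rests on the labels. Apc, floxed in both groups, read 8.14 to 8.35 on the 4 arrays.

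Of the 74 genes, 34 had a mean at or above the level filter, set at 4.45 log2 units (the 40th percentile of all probe sets), and were tested: 13 collagens, 7 laminins and 14 integrins. None of the 34 passed an adjusted p of 0.05 in the limma fit with genotype alone, in which 0.522% of all 11874 genes tested were called higher and 0.126% lower. Before adjustment, 2 of the 34 (5.88%) had a limma p under 0.05, Col16a1 and Itga2, against 7.97% of all genes tested. The batch letter pairs 1 array of each genotype, and with the batch as a block 1 gene was higher, Col16a1, and 3 were lower, Itga2, Col4a1 and Col4a2. This is 2.94% and 8.82% of the 34, against 3.91% of all genes tested that were higher and 2.97% that were lower with the block. The blocked fit has 1 residual degree of freedom, to which moderation added 4.99. The groups did not overlap for 2 genes that were higher and 7 that were lower (5.88% and 20.6%), against 14.7% and 17.3% of all genes tested. The median difference of the 34 was -0.09, and that of all genes tested was -0.03.

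**Figure D1:**
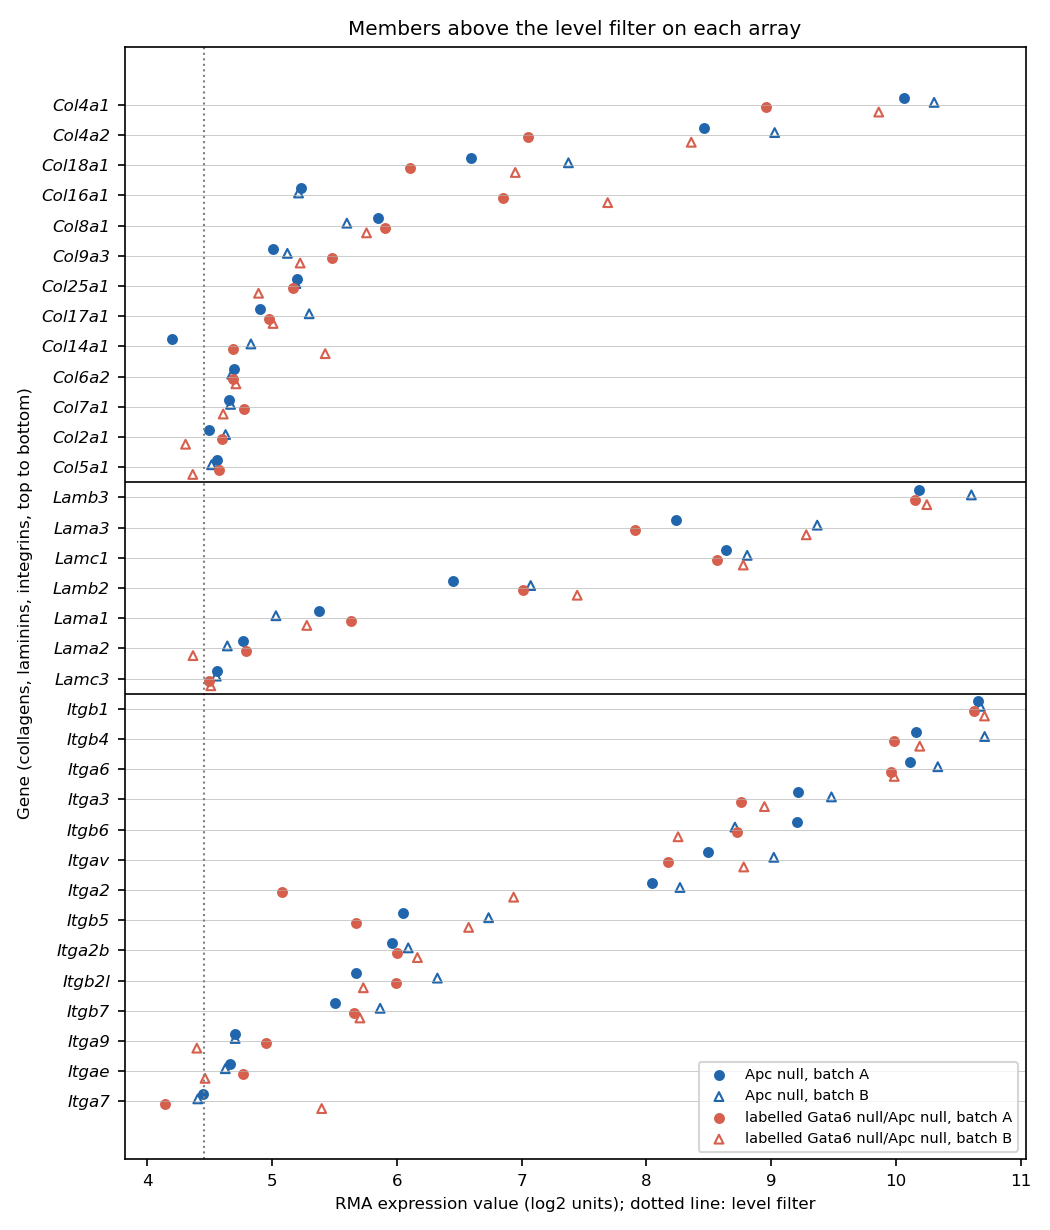
RMA expression value (log2 units, horizontal axis) of the 34 genes above the level filter on each of the 4 arrays, with collagens, laminins and integrins from top to bottom; blue marks Apc null and red marks labelled Gata6 null/Apc null, filled circles batch A and open triangles batch B. Itga2, Col4a1 and Col4a2 lie to the left in red, Col16a1 lies to the right in red, and most other genes have the 4 arrays close together or ordered by batch.

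Col4a1 and Col4a2 encode the chains that make up the common collagen IV trimer of basement membranes, and both read lower in organoids labelled Gata6 null/Apc null. Col4a1 read 10.06 and 10.30 in the Apc null arrays of batches A and B, and 8.96 and 9.86 in those labelled Gata6 null/Apc null. The groups did not overlap, and the array of batch A was the lowest. The difference was -0.77 (SE 0.33), made up of -1.10 for batch A and -0.44 for batch B, and the limma adjusted p was 0.715, or 0.0467 with the batch as a block. Col4a2 read 8.46 and 9.03 in the Apc null arrays, and 7.05 and 8.36 in those labelled Gata6 null/Apc null. Here too the groups did not overlap, and the array of batch A was the lowest. Its difference was -1.04 (SE 0.50), made up of -1.41 for batch A and -0.67 for batch B, and the adjusted p was 0.808, or 0.0376 with the block. Another Col4a1 probe set gave the same order of arrays, with 9.11 and 9.52 against 7.87 and 8.98. Without the array labelled Gata6 null/Apc null of batch A the differences were -0.32 for Col4a1 and -0.39 for Col4a2, and without that of batch B they were -1.22 and -1.69. With the block, Col4a1 missed the threshold when its probe sets were averaged (adjusted p = 0.0555) or when all probe sets were tested singly (0.0596 and 0.0579).

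Both genes lie head to head on chromosome 8, so the stretch between their start sites is shown. In RefSeq (GRCm38.p6) Col4a2 starts at position 11312805 on the plus strand and Col4a1 at 11312826 on the minus strand, 21 bases apart. The 22 bases from one start to the other, chr8:11312805-11312826 on the plus strand, are transcribed in both directions. The capitals mark GGGCGG, the GC box that factors of the Sp family are known to bind.

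Col4a1 and Col4a2: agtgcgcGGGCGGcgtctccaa

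The other collagen IV chains were dim. Col4a3, Col4a4 and Col4a6, chains of the collagen IV networks of specialised basement membranes, read 3.65 to 4.24 on all 4 arrays. Col4a5, a partner of these chains, read 4.05 and 5.14 in the Apc null arrays, against 3.70 and 3.86 in those labelled Gata6 null/Apc null. The array of Apc null in batch B alone was above the filter level, and the gene was not tested.

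Col16a1, which encodes a collagen that attaches to the surface of fibrils, was higher in organoids labelled Gata6 null/Apc null. It read 5.24 and 5.21 in the Apc null arrays of batches A and B, and 6.85 and 7.69 in those labelled Gata6 null/Apc null. The Apc null arrays were almost equal, and both others stood well above them. The means were 5.22 ± 0.02 and 7.27 ± 0.59 (SD, n = 2 each), a 4.13-fold difference (log2 2.05, SE 0.34). The limma adjusted p was 0.131, or 0.00870 with the block. Leaving out 1 array at a time gave differences of 1.63 to 2.47 and adjusted p-values of 0.0513 to 0.346. Each such fit leaves 1 group with a single array, which is assumed to vary like the other group. The gene has a single probe set, of a kind that can match more than 1 transcript.

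The 250 bases before the RefSeq start site of Col16a1 are shown because its group difference was the only one of the 34 in this direction to pass with the block. They lie at chr4:130047590-130047839 on the plus strand of GRCm38.p6, and capitals mark the GC box, GGGCGG on either strand, which begins 159 bases before the start.

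Col16a1: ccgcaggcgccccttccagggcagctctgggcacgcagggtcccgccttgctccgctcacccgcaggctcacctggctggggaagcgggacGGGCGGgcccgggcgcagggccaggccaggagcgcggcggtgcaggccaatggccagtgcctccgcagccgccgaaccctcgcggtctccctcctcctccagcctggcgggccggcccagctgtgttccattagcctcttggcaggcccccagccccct

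The other collagens associated with fibrils showed no call. Col14a1 and Col9a3, of the same class, were tested and differed by 0.54 (SE 0.34, adjusted p = 0.977 unblocked, 0.101 with the block) and by 0.29 (SE 0.18, adjusted p = 0.979 unblocked, 0.461 with the block). Col14a1 read 4.20 and 4.83 against 4.68 and 5.43, so its groups overlapped and batch B was the higher in each. Col9a1, a chain of the collagen IX trimer best known from cartilage, lay under the filter with readings of 3.61 and 3.43 in the Apc null arrays and 5.27 and 4.27 in those labelled Gata6 null/Apc null. It was the only one of the 40 genes under the filter with a difference of at least 1, at 1.25, and its groups did not overlap. In a fit without the filter its limma adjusted p was 0.398, or 0.00690 with the block. Its other probe set read 3.67 to 4.31 and differed by 0.26. Col9a2, Col12a1, Col19a1, Col20a1 and Col22a1 read 3.43 to 4.38.

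**Figure D2:**
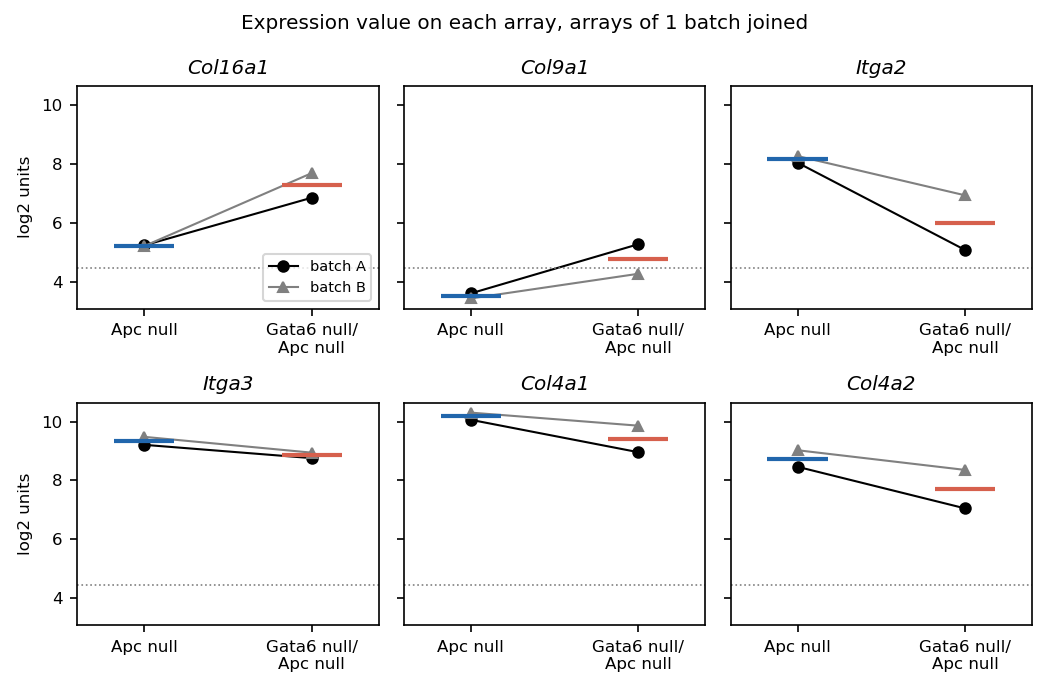
RMA expression value (log2 units, vertical axis) of 6 genes on each array, by genotype label, with the 2 arrays of a batch joined by a line (black circles batch A, grey triangles batch B); bars are group means of 2 arrays and the dotted line is the level filter of 4.45. Itga2, Col4a1 and Col4a2 drop more steeply in batch A than in batch B, Col16a1 climbs in both, and Col9a1 starts under the filter level.

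Fibrillar collagens, the rope-like matrix of connective tissue, were at or near the floor. Of 11 such genes, 9 lay under the filter, with readings of 3.36 to 4.37. Col1a1, Col1a2 and Col3a1, the chains of the main fibrils made by fibroblasts, were among them, at 4.15 to 4.34, 3.67 to 3.82 and 3.97 to 4.30. Col2a1 and Col5a1 were just above the filter and differed by -0.11 (SE 0.16) and -0.07 (SE 0.14). Collagen VI, which forms beaded filaments, had 1 of 5 genes tested: Col6a2 read 4.68 to 4.71 and differed by 0.01 (SE 0.13).

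Col18a1 encodes a basement membrane collagen whose end fragment is endostatin. It read 6.60 and 7.37 in the Apc null arrays and 6.10 and 6.95 in those labelled Gata6 null/Apc null. Batch B was the higher in both genotypes, the groups overlapped, and the difference was -0.46 (SE 0.43, adjusted p = 1.00 unblocked, 0.227 with the block). Col15a1, the related multiplexin, read 4.19 to 4.34. Col7a1, the anchoring fibril collagen, read 4.61 to 4.78, and the transmembrane collagens Col17a1, of hemidesmosomes, and Col25a1 read 4.91 to 5.30 and 4.89 to 5.20. Col8a1, a network collagen of vessel walls and cornea, read 5.60 to 5.91. The differences of these 4 tested genes were between -0.16 and 0.11, and none passed in either fit. Col8a2, Col10a1, Col13a1, Col23a1 and Col26a1 read 3.54 to 4.56 and were not tested.

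Laminins showed no call in either fit, and their differences were between -0.21 and 0.46. Lama3 and Lamb3 encode chains of the laminin that hemidesmosomes hold. Lamb3 read 10.18 and 10.60 in the Apc null arrays and 10.15 and 10.25 in those labelled Gata6 null/Apc null, a difference of -0.20 (SE 0.18, adjusted p = 1.00). Lama3 read 8.24 and 9.37 in the Apc null arrays and 7.91 and 9.28 in the others. Its arrays were ordered by batch, with batch B above batch A by 1.13 in Apc null and 1.37 in those labelled Gata6 null/Apc null, while the genotypes differed by -0.21 (SE 0.60). Lamc1, the gamma chain of most laminins, read 8.57 to 8.81 and differed by -0.05 (SE 0.20, adjusted p = 1.00). Lamb2, a beta chain of kidney, nerve and muscle basement membranes, had the largest positive difference of the laminins tested, at 0.46 (SE 0.33, adjusted p = 1.00 unblocked, 0.221 with the block), with 6.45 and 7.07 against 7.01 and 7.44. Its groups overlapped, since the Apc null array of batch B was above the other group's array of batch A. Lama1, the alpha chain of early embryonic basement membrane, read 5.03 to 5.63 and differed by 0.25 (SE 0.23). Lama2 and Lamc3 read 4.37 to 4.79 and 4.49 to 4.56, and Lamb1 lay under the filter at 4.34 to 4.53.

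Itga2, the alpha chain that pairs with integrin beta 1 into a collagen receptor, had the largest decrease of the 34 genes. It read 8.04 and 8.27 in the Apc null arrays of batches A and B, and 5.08 and 6.94 in those labelled Gata6 null/Apc null. The groups stood apart, and the 2 lower arrays were themselves 1.86 apart. The means were 8.16 ± 0.16 and 6.01 ± 1.31 (SD, n = 2 each), a 4.43-fold lower level in the second group (log2 -2.15, SE 0.64). The limma adjusted p was 0.418, or 0.0261 with the block, and batch A differed by -2.96 and batch B by -1.33. Without the array labelled Gata6 null/Apc null of batch A it was -1.22, and without that of batch B it was -3.08. In bulk RNA, fewer cells that express a gene and less of its RNA per cell cannot be told apart. The other alpha chains that bind collagen, Itga1 and Itga10, read 3.70 to 4.66 and were not tested.

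The 250 bases before the RefSeq start site of Itga2, chr13:114932101-114932350 on the minus strand of GRCm38.p6, are shown for the gene with the largest decrease. They hold no GC box and no GATA motif, so no letter is in capitals. The only GC box of the Itga2 window searched below begins 2 bases after the start site, beyond the bases printed.

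Itga2: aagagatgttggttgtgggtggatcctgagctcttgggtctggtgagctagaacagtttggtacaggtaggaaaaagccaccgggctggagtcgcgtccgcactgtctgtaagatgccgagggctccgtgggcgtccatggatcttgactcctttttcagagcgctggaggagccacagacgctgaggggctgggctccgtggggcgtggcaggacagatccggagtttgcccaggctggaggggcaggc

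Itgb1, the beta chain shared by the receptors for collagen and for most laminins, differed by 0.00 (SE 0.10, adjusted p = 1.00). Its 4 readings were 10.66 and 10.68 in the Apc null arrays and 10.63 and 10.71 in the others, so the arrays of both groups interleaved. The 2 other Itgb1 probe sets above the filter level differed by -0.01 each. Itga2 thus differed in arrays where its partner chain read nearly the same.

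None of the integrin chains that bind laminin passed in either fit, and their differences had both signs. Itga3, which pairs with beta 1, read 9.21 and 9.48 in the Apc null arrays and 8.76 and 8.95 in the others. The groups did not overlap, and the difference of -0.49 (SE 0.20) had a limma adjusted p of 0.662, or 0.0564 with the block. Its 2 other probe sets differed by -0.53 and -0.55. Itga6 and Itgb4 encode the pair that anchors hemidesmosomes to laminin. Itga6 read 10.11 and 10.33 against 9.96 and 9.99, a difference of -0.25 (SE 0.14, adjusted p = 0.921 unblocked, 0.206 with the block). Itgb4 read 10.16 and 10.71 against 9.98 and 10.19, so its groups overlapped, and the difference was -0.35 (SE 0.22, adjusted p = 0.977 unblocked, 0.129 with the block). Itga7, a laminin receptor chain of muscle, read 4.44 and 4.40 against 4.15 and 5.40, a difference of 0.35 (SE 0.42) that was negative in batch A and positive in batch B. Its mean was under the filter level in Apc null, and the array of batch B in the other group alone was clearly above it.

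Itgav pairs with Itgb6 in a receptor known to activate latent TGF-beta in epithelium, and with Itgb5. Itgb6 read 9.20 and 8.71 in the Apc null arrays and 8.73 and 8.25 in the others. Batch A differed by -0.48 and batch B by -0.46, and batch B was below batch A in each genotype, so the groups overlapped. The difference was -0.47 (SE 0.29, adjusted p = 0.964 unblocked, 0.0842 with the block). Its other probe set read 8.07 and 7.81 against 7.24 and 7.02 and differed by -0.80 (limma adjusted p = 0.0485 with the block over all probe sets), and the mean of both probe sets passed with the block (0.0478). Itgav differed by -0.28 (SE 0.32) and Itgb5 by -0.27 (SE 0.42), both with an adjusted p of 1.00 and with batch B above batch A in each genotype.

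The remaining integrins are best known from leukocytes, platelets and other cells. Itga2b, of the platelet fibrinogen receptor, read 5.96 to 6.16 and differed by 0.05 (SE 0.22). Itgb7 and Itgae, which pair in lymphocytes that bind epithelial E-cadherin, read 5.50 to 5.87 and 4.46 to 4.77, and their differences were -0.00 and -0.03. Itga9 read 4.40 to 4.95. Itgb2l, a relative of Itgb2, read 5.67 to 6.32, with a difference of 0.32 in batch A and -0.59 in batch B. Itgb2 and the alpha chains Itgal, Itgam and Itgax, its partners in leukocytes, lay under the filter at 3.33 to 4.82, as did Itga4, Itga5, Itga8 and Itgb3 at 3.35 to 4.08. The highest of these readings, for Itgal and Itgb2, were in the array labelled Gata6 null/Apc null of batch A.

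Across the 34 genes, 23 had a negative difference and 11 a positive one. The 14 integrins tested had 11 negative differences with a median of -0.19, the 7 laminins had 5 with a median of -0.06, and the 13 collagens had 7 with a median of -0.07. In a grouping by level made after the values were seen, 11 genes had a mean of at least 8 log2 units, and 10 of these were lower in both batches, Itgb1 being the exception. Their median difference was -0.28. Of all 4246 genes at that level, 37.7% were lower in both batches, with a median difference of -0.02. No test was made of this count. The 11 epithelial markers described below had a median difference of -0.23, so a lowering of about this size was not particular to these families. Of the 34 genes, the 17 with a mean under 6 had differences between -0.16 and 0.54. The sign was the same in both batches for 22 of the 34 (64.7%), against 63.4% of all genes tested. A further 15 probe sets of 10 of these genes were above the filter level, and 13 had the sign of the chosen one.

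Many of the 34 genes also differed between the batches. Batch B was above batch A in both genotypes for 18 of the 34 genes (52.9%), against 30.5% of all genes tested, and below it in both for 7. For 17 of the 34 the batch difference in each genotype was larger in size than the genotype difference. Lama3, Col18a1, Itgb5 and Itgav were among those higher in batch B, and Itgb6 and Lama1 among those lower. What the batch letter stood for in these cultures was not tested.

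**Figure D3:**
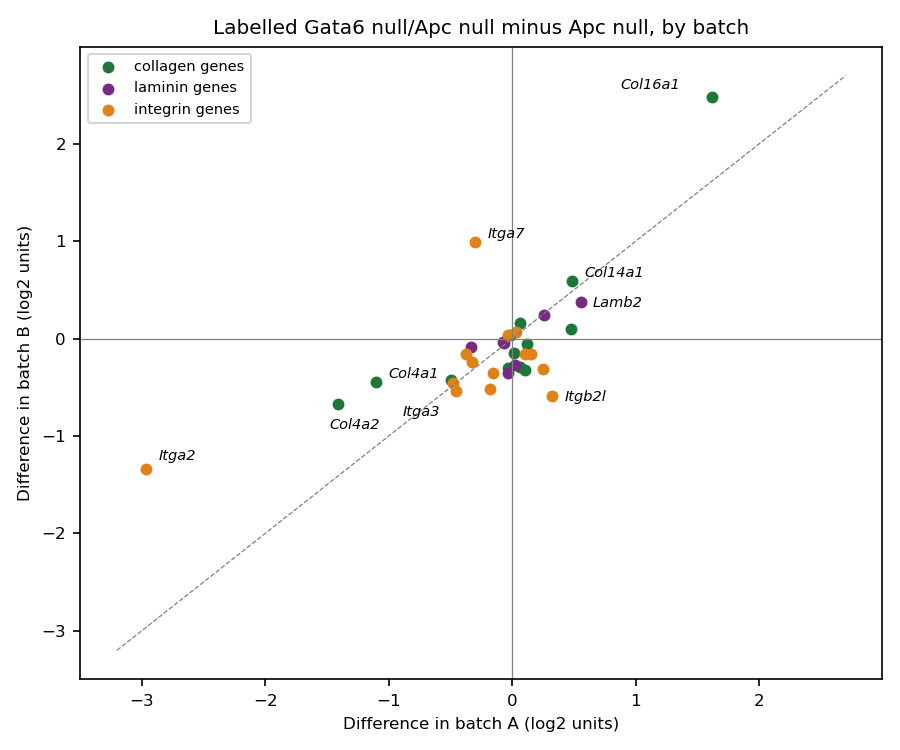
Difference of the group labelled Gata6 null/Apc null from Apc null within batch A (horizontal axis) and within batch B (vertical axis), both in log2 units, for the 34 genes above the level filter; the dashed line marks equal differences. Itga2 at -2.96 and -1.33, Col4a2, Col4a1 and Col16a1 lie far from the centre with the same sign in both batches, while Itga7 and Itgb2l have opposite signs.

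Other genes of the matrix and of adhesion were read from lists by function. None of these genes passed with genotype alone, and counts below are those with the block, to be read against the 3.91% and 2.97% above. Of 8 other basement membrane proteins tested, 1 had an adjusted p under the threshold, Egflam, a laminin-domain protein known as pikachurin. It read 4.46 and 4.09 in the Apc null arrays and 5.08 and 5.16 in the others, a difference of 0.84 (SE 0.18, adjusted p = 0.222 unblocked, 0.0419 with the block). Its Apc null mean was under the filter level, so it was tested only through the group where it was higher, and its call is no support for a change in the list. Of 4 other integrin ligands tested, 1 was higher, Fn1. This fibronectin gene read 6.75 and 8.41 in the Apc null arrays and 8.44 and 9.23 in the others, so the groups stood apart by little and batch B was the higher in each. Its difference was 1.25 (SE 0.62, adjusted p = 0.828 unblocked, 0.0271 with the block).

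Among 20 integrin adaptors and focal adhesion genes tested, 3 were lower and 1 passed in the other direction. This was Fermt2, a kindlin that activates integrins, with a difference of 0.96, from 4.10 and 4.01 under the filter level to 5.32 and 4.70. Like Egflam it was tested only through the group where it was higher, and its call is given as a value alone. Ptk2b, a kinase related to focal adhesion kinase, differed by -0.98, the zyxin gene Zyx by -0.81 and the actinin gene Actn1 by -0.45, with block adjusted p-values of 0.0248, 0.0129 and 0.0288. Of 7 hemidesmosome genes tested 1 was lower, the plakin gene Dst, which links integrin beta 4 to keratin filaments. It read 6.35 and 6.60 against 5.10 and 5.51, a difference of -1.17 (SE 0.25, adjusted p = 0.225 unblocked, 0.0184 with the block), and the groups did not overlap. Keratin genes Krt8 and Krt18 of the same list differed by -0.21 and -0.24 without a call.

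Genes that modify, process or cut matrix proteins were mixed. Of 9 genes for collagen modification and secretion none passed in either fit, and the prolyl hydroxylase subunit gene P4hb read 10.95 to 11.15 with a difference of -0.05 (SE 0.11). Not all of this list was as steady. P4ha2 read 7.06 and 8.90 in the Apc null arrays and 5.59 and 9.36 in the others. Plod2 read 6.32 and 8.46 against 5.22 and 8.86. For both, batch B was the higher in each genotype, and the difference was negative in batch A and positive in batch B. Of 6 for collagen processing and crosslinking 1 was lower, the lysyl oxidase gene Loxl4, at 6.80 and 7.10 against 5.91 and 6.01 (difference -0.99, SE 0.24, adjusted p = 0.296 unblocked, 0.0336 with the block). Of 10 matrix proteases and inhibitors 1 was higher, the metalloprotease gene Mmp11, at 5.75 and 6.43 against 7.14 and 8.30 (difference 1.63, SE 0.49, adjusted p = 0.421 unblocked, 0.00870 with the block). Another 2 were lower with the block, the metalloprotease gene Mmp7 (-0.78) and the urokinase receptor gene Plaur (-0.80). Of 7 matrix receptors other than integrins none passed, and Sdc4, a syndecan, differed by -0.25 (SE 0.11). The median difference was -0.41 for the proteases, -0.25 for processing, -0.24 for hemidesmosomes, -0.16 for modification, -0.14 for adaptors, -0.16 for other ligands, -0.03 for the other receptors and 0.11 for basement membrane proteins, beside -0.03 for all genes tested.

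**Figure D4:**
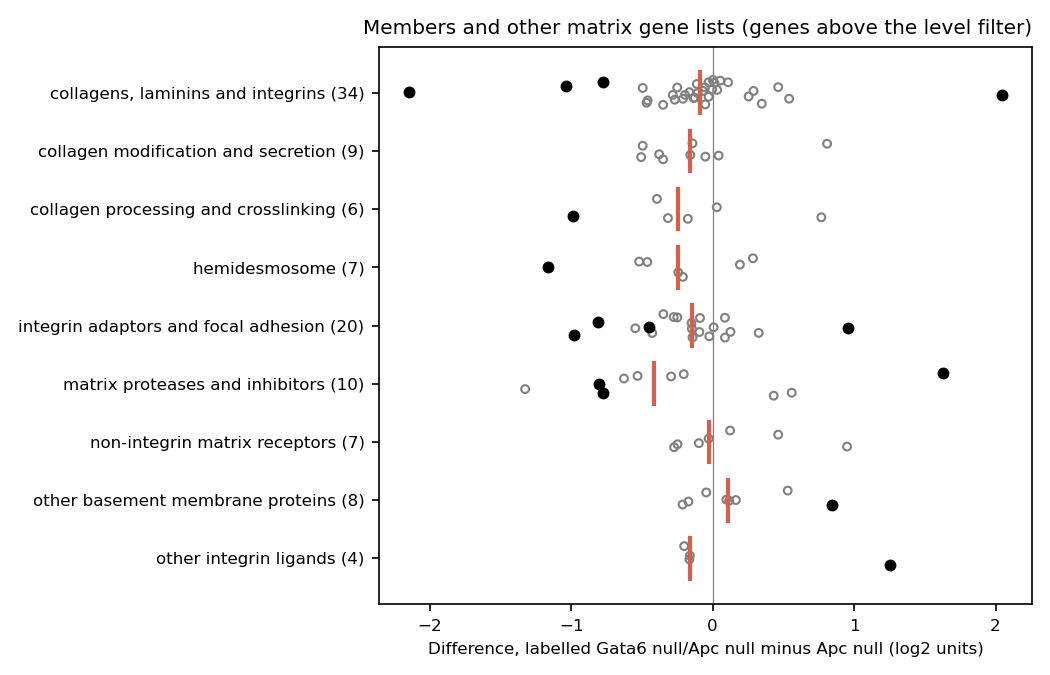
Difference between the groups (log2 units, horizontal axis) for each gene above the level filter, in the collagens, laminins and integrins and in 8 further lists, with the number of genes in brackets; filled points passed 0.05 after adjustment in the blocked fit, open points did not, and red bars are medians. Filled points lie on both sides of 0, with Itga2 at the far left and Col16a1 at the far right of the top line.

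Markers of connective tissue and other cells ranged from the array floor to well above the filter. Of 12 fibroblast markers measured 5 were above the filter, none passed in either fit, and their mean level was 4.26 and 4.23 in the Apc null arrays and 4.35 and 4.23 in the others. Lum, Pdgfra, Fap and Thy1, made by fibroblasts, read 3.21 to 4.02. Among the 5 above the filter, the contractile gene Acta2 read 5.66 to 5.93 and Twist2 read 4.22 to 5.32. The others of the 5 were Dcn at 4.37 to 4.57, Pdgfrb at 4.64 to 5.04 and Myh11 at 4.68 to 5.51. The 8 endothelial markers had mean levels of 4.30 to 4.40 on the 4 arrays, with Vwf at 5.08 to 6.04, and none passed in either fit. The 13 immune markers had mean levels of 4.36 to 4.49, with Ptprc, the pan-leukocyte antigen, at 3.07 to 3.25, and none passed in either fit. The highest of them was Cd68, a lysosomal protein abundant in macrophages, at 5.92 and 7.57 in the Apc null arrays and 4.94 and 7.23 in the others. Its arrays were ordered by batch, and the difference was -0.66 (SE 0.93, adjusted p = 1.00 unblocked, 0.174 with the block). Lyz1, a lysozyme that Paneth cells make, read 5.57 and 5.63 against 5.03 and 5.01 (difference -0.58, SE 0.17, adjusted p = 0.389 unblocked, 0.110 with the block). All 11 epithelial markers were tested, among them Epcam at 11.29 to 11.53 and Cdh1 at 9.90 to 10.19. Their mean level was 10.48 and 10.36 in the Apc null arrays and 10.01 and 9.94 in the others. Every difference in this list was negative, from -0.01 for Epcam to -1.57 for Cdx2, with a median of -0.23. In this list Tspan8, a tetraspanin, passed in both fits, at 11.31 and 11.37 against 9.96 and 10.10. Its difference was -1.31 (SE 0.11, limma adjusted p = 0.0305 unblocked, 0.000568 with the block). Cdx2, the intestinal homeobox gene, passed with the block alone (-1.57, adjusted p = 0.228 unblocked, 0.00545 with the block). The part of these markers in the differences of Itga2 or collagen IV was not tested.

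Windows from 250 bases before to 50 after the start site were present in the RefSeq table for 54 of the 74 genes, as 60 windows. The GATA motif, searched as AGATAA or AGATAG and as TGATAA or TGATAG on both strands, was in 7 of these 60 windows (11.7%), against 29.8% of all 32851 windows. Of the 28 windows of tested genes 2 held it (7.14%), those of Col17a1 and Itgb7, and the 4 windows of Col16a1, Itga2, Col4a1 and Col4a2 held none. The GC box GGGCGG, on both strands, was in 33 of the 60 windows (55.0%) against 35.7% of all, and in the windows of all 4 of those genes. The windows of Col4a1 and Col4a2 overlap, and the only GC box of the Col4a1 window is the one printed above, which the Col4a2 window also holds. Neither motif contains the other, and a match is a description of these letters alone.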

How the data were processed

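Total RNA of 4 organoid cultures was amplified from 25 ng and hybridised to Affymetrix arrays, per the labels' protocols. The deposited values are in log2 units and come from RMA in affy, per the submitters' processing notes (version not given in the sources used here). This method removes array-wide shifts and compresses low values towards a floor. The values covered 45141 probe sets, of which 104 controls were left out, and platform annotation gave 1 gene to 28898 of the others. RefSeq tables (GRCm38.p6) served for names and start-site windows. The genotypes were tested in limma 3.58.1 under R 4.3.3 (eBayes with a trend), two-sided, and p-values were adjusted by Benjamini-Hochberg across the 11874 genes above the level filter. A limma fit with genotype alone was tried on simulated data without batch differences, and the blocked fit was not tried in this way. The fit with genotype alone has 2 residual degrees of freedom, to which moderation added 2.83. Batch B minus batch A differences of the genotypes correlated at 0.675 across genes, and the labels name the batch, so the letter pairs the arrays. The design text calls the samples biological replicates without naming separate mice, so p-values may measure the spread between cultures only. The members and lists were chosen with earlier results of these data known. Named genes were those past the threshold in either fit, with the 2 genes of highest level and the gene of largest difference in each role group, and for other lists those called or else the gene of highest level. Other genes are named to account for every member or to show the spread within a list. The precision is limited by the number of arrays.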

Additional observations from a re-analysis of the deposited data

How the results depend on the processing

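The count of collagen, laminin and integrin genes called was 0 with genotype alone and stayed 0 without the filter, with the filter at the 60th percentile, without a trend, with averaged probe sets, without shared-sequence probe sets, with median-centred arrays and with any 1 array left out (range 0 to 0). A fit without 1 array takes its spread from the other group alone and so says little about stability. With the batch as a block (paired arrays) it was 4. In settings added after the data were seen, the replicate block gave 6 without the filter (Col9a1 and Itga3 joining), 4 with averaged probe sets (Itgb6 in place of Col4a1) and 3 without shared-sequence probe sets, where Col16a1 has no probe set. Probe sets were taken as shared by the suffixes s, x and a alone, and that of Col16a1 has the suffix a. Whether its sequence matches another gene was not tested. Over all genes, 77 were called with genotype alone, 128 with median-centred arrays, 33 to 130 with 1 array left out, and 817 with the block, or 1004, 705 and 727 in the added settings. Signs were not compared between settings across all genes. Among the tested collagen, laminin and integrin genes, none that was called in any of these settings changed its sign. Other directions of genes without a call turned with single arrays, in 2 to 9 of 36 genes. With 2 arrays a group and values near the floor for 40 of the 74 genes, small differences are not resolved here, and the cause of the gain in calls with the block was not tested.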
